A study of Mus musculus with 10 samples.

Results

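Transcripts of 36 genes of glycolysis and of the response to low oxygen were followed in T cells from mouse melanomas under treatments aimed at myeloid cells. The genes were picked by symbol: 2 glucose transporters, 11 genes of upper glycolysis, 5 of lower glycolysis, 5 genes of lactate and pyruvate handling, 3 of the HIF pathway and 10 HIF targets and stress genes. A gene was kept when at least 10 normalized counts were listed for it in at least 2 of the 10 libraries, which all 36 reached, out of 48825 genes listed and 15716 that passed the same filter. Closest to that limit was Adm, at 10 or more in 3 libraries, followed by Vegfa and Pfkfb4 in 4 each.

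Every mouse, Control included, carried BrafCA and Tyr::CreER, by which a tamoxifen-inducible recombinase under the tyrosinase promoter activates Braf in melanocytes after local induction; the genotype field reads wild type. Treatment began 30 days after induction, at a volume below 100 mm3, and lasted at most 30 days or until 2 cm3. Control mice (3 libraries) ate normal chow. The CSF1Ri group (2 libraries) ate chow with 600 mg/kg of PLX6134, an inhibitor of the macrophage survival receptor CSF1R. The CD40 group (3 libraries) was injected with the agonistic CD40 antibody FGK4.5 at 10 mg/kg every 3 days, up to 10 times, and the CSF1Ri+CD40 group (2 libraries) got both agents. Vehicle (PBS) is named for control mice of some experiments, without saying which, and ages are given only as matched. At least 3 tumors were pooled for each library, so p-values measure the spread between pools. The comparisons ask how T cell transcripts differed under agents aimed mainly at other cells. Whether the agents also acted directly on the sampled cells was not tested.

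Glycolysis splits glucose into pyruvate. Glucose enters through transporters of the SLC2A family, is trapped by hexokinase, committed by phosphofructokinase and cleaved by aldolase, and the lower enzymes then harvest ATP. Activated T cells run this pathway fast even when oxygen is present and export the pyruvate as lactate. HIF-1α, the oxygen-sensitive subunit of the transcription factor HIF-1, is marked for destruction by the prolyl hydroxylases EGLN1 and EGLN3 when oxygen is plentiful. In hypoxia, or after T cell receptor and mTOR signalling, it accumulates and activates genes of glucose uptake, glycolysis, mitophagy and vessel growth through sites with the core ACGTG or GCGTG. Its activity is regulated mainly at the protein level, which RNA does not show.

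Library numbers come from the titles; 1 CSF1Ri title has no number, and its library is called CSF1Ri 1. Deposited values summed to 11538244 to 14024851 per library; they are scaled, so depth is not known from them. By title the samples are T cells, but the tissue field gives tumor macrophages and the protocol gives no step that selects T cells. All 8 T cell markers (Cd3d, Cd3e, Cd3g, Cd2, Lck, Cd4, Cd8a, Foxp3) were above 1000 in each library, and their sum ran from 70512 to 118947 normalized counts. The 8 macrophage markers summed to 274 to 1270, with Csf1r at 30 to 235. Other cells left traces that differed by library: mast cell markers summed to 18054 in CD40 1 and 9825 in CSF1Ri+CD40 1 but 531 to 3569 elsewhere, and erythroid genes to 2940 to 15906 in Control against 13 to 2729 in treated libraries. Melanocyte markers summed to 1147 in CD40 2 and 903 in CD40 1, and to 275 to 629 elsewhere. Fibroblast markers summed to 415 to 461 in CSF1Ri against 1615 to 2778 in Control. The CD40 libraries 1, 2 and 3 held 4858, 946 and 34 of these, and the combination 740 and 2620. Keratinocyte markers, at 259 to 344, were likewise lower in CSF1Ri than in Control, at 692 to 1466. The CD40 libraries held 306 to 839 of these and the combination 371 to 1562. In CD40 3, the nuclear RNA Malat1 was highest (95260) and 9 mitochondrially encoded genes summed lowest (95074) of all libraries. Y-linked transcripts were seen in Control 1, CD40 2 and CD40 3 and were at 0 or 1 in the other 7. The part of these differences in the results below was not tested unless a value is given. In bulk RNA, fewer cells of a type and less RNA per cell cannot be told apart.

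Most of the 36 genes were higher on average in treated than in Control libraries, and none passed the test. The test was limma on log2(normalized count + 1), with Benjamini-Hochberg adjustment over all 15716 genes and a threshold of 0.05. For CSF1Ri over Control, 24 of the 36 had a fold change above 0 on the log2 scale, with a median of 0.23; for CD40 the count was 27 with a median of 0.29, and for the combination 30 with a median of 0.46. Over all genes tested, 51.1%, 49.0% and 49.3% were higher, and the medians were 0.02, -0.01 and 0.00. With libraries scaled to 1 total, the members' counts became 22, 26 and 30 and their medians 0.18, 0.25 and 0.40. Single libraries moved the medians: for CSF1Ri it was 0.09 without CSF1Ri 1, 0.34 without CSF1Ri 6 and 0.36 without Control 2, for CD40 0.09 without CD40 2 and 0.53 without CD40 3, and for the combination 0.28 without CSF1Ri+CD40 1. The 3 comparisons share the same Control libraries and are not independent of each other.

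At an adjusted p under 0.05, 0 members were called in each comparison. The background was as low: 0.00636% of genes for CSF1Ri over Control and 0.00636% for CD40 over Control (1 gene each), and 0% for the combination over Control. At an unadjusted p under 0.05, 1 member was called for CSF1Ri (Gpi1), against 4.08% of all genes. For CD40 it was 3 (Gpi1, Pgam1 and Slc2a1), against 6.39%, and for the combination 3 (Slc2a1, Ankrd37 and Pfkm), against 5.40%. All of these were higher under treatment, and their shares of the 36, 2.78%, 8.33% and 8.33%, were near the background.

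Groups that did not overlap were counted next, as a description. In both CSF1Ri libraries 12 members lay above all 3 Control libraries, which 11.6% of all genes did, and 0 lay below, which 10.3% did. In all 3 CD40 libraries 4 members lay above every Control library (background 4.19%) and 0 below (4.91%). In both combination libraries 14 lay above (10.6%) and 0 below (9.60%). The 14 include Adm, which passed the low-value filter only through the combination libraries. Slc2a1 and Gpi1 were the members for which all 7 treated libraries lay above all 3 Control libraries. The share of all genes for which this held was not counted. It is at most the 4.19% for which all 3 CD40 libraries lay above Control. These counts leaned on single libraries: without CD40 3 the CD40 count was 19 (background 13.7%), without CSF1Ri 6 the CSF1Ri count was 21 (22.0%), and without CSF1Ri+CD40 3 or Control 2 the combination count was 23 (24.5%) or 22 (17.9%). Members below every Control library were no longer 0 in some of these settings: they numbered 4 without CSF1Ri 1 for CSF1Ri, 4 without CSF1Ri+CD40 1 for the combination, and at most 3 without any other library. No share of all genes is at hand for these counts below Control, so whether they are many or few cannot be told. With libraries scaled to 1 total, 11 members lay above Control in the combination (background 9.27%) and 1 below.

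**Figure D1:**
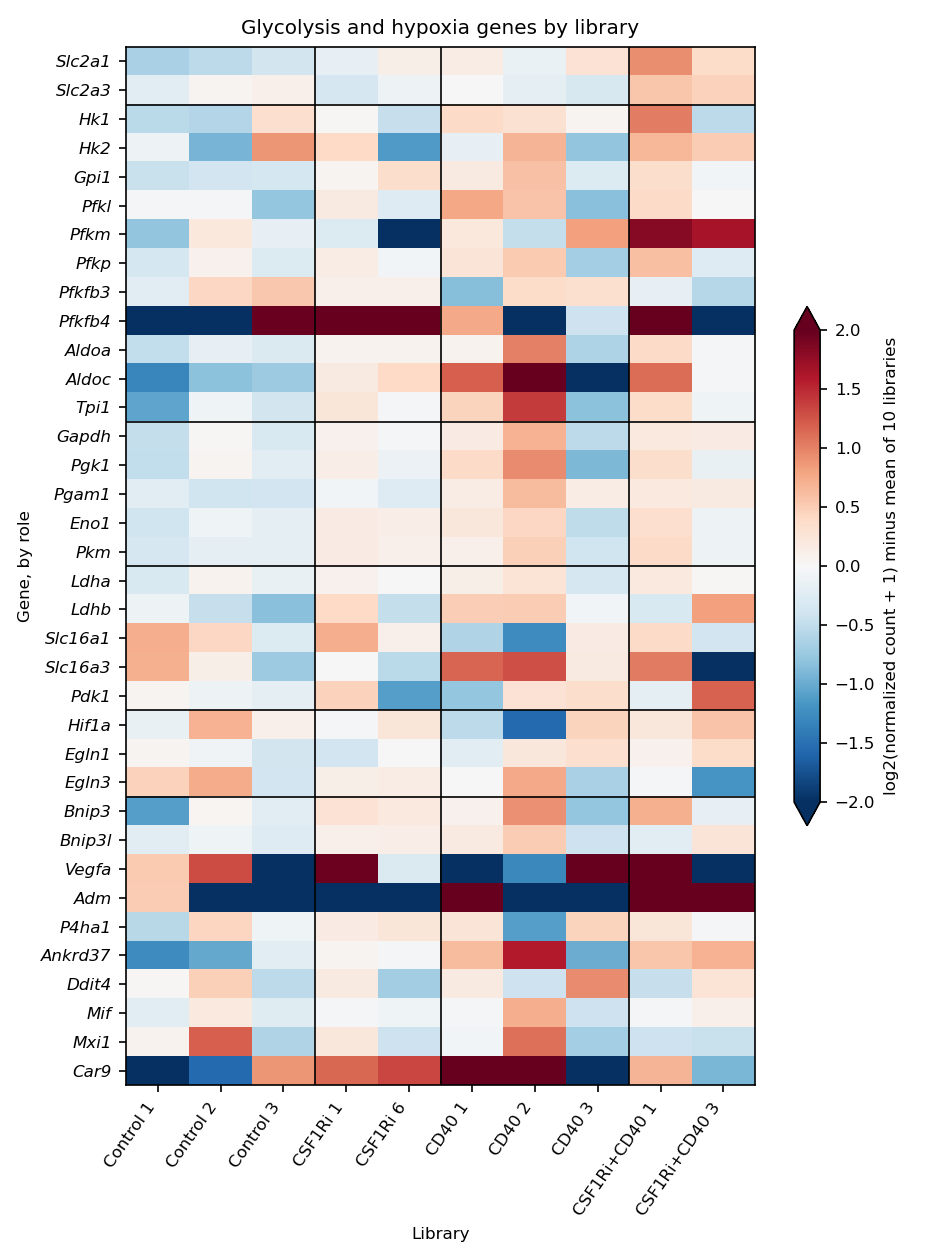
Heat map of the 36 genes (rows, grouped by role from glucose uptake at the top to HIF targets and stress genes at the bottom) in the 10 libraries (columns, grouped by treatment). Color gives the log2(normalized count + 1) minus the mean of that gene over the 10 libraries, limited to -2 and 2; CD40 2 is mostly red and CD40 3 mostly blue across the enzyme rows.

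Libraries of one group differed as much as groups did. The median over the 36 genes of the log2 value minus its mean over the 10 libraries was -0.27, -0.05 and -0.27 in Control 1, 2 and 3, and 0.13 and -0.03 in CSF1Ri 1 and 6. It was 0.17, 0.50 and -0.40 in CD40 1, 2 and 3, and 0.37 and -0.03 in CSF1Ri+CD40 1 and 3. The within-group SD of this value was 0.30. For all genes tested the same median stayed between -0.04 and 0.09. CD40 2 was the highest of the 10 libraries for 16 of the 36 genes and CD40 3 the lowest for 12. The widest split of the members thus lay inside the CD40 group. Over all 15716 genes tested, CD40 2 was the highest library for 2621 and CD40 3 the lowest for 1938. CD40 2 was also the lowest for 2026 of these genes and CD40 3 the highest for 2595. Both libraries were thus often extreme, in either direction, beyond the members.

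The 36 genes together made up 0.924%, 1.09% and 1.03% of all normalized counts in Control 1, 2 and 3, 1.25% and 1.18% in CSF1Ri 1 and 6, 1.25%, 1.62% and 0.92% in CD40 1, 2 and 3, and 1.42% and 1.13% in CSF1Ri+CD40 1 and 3. This sum is weighted toward the most abundant members. Aldoa averaged 31400, Pkm 29258, Ldha 24698, Eno1 14547 and Gapdh 14400 normalized counts over the 10 libraries. The summed T cell markers were high and low in much the same libraries as the summed members. They came to 70512 to 87586 in Control, 98764 to 111164 in CSF1Ri and 101849 to 106441 in the combination. In CD40 they were 102673, 118947 and 74905 in libraries 1, 2 and 3. CD40 2 thus led both sums, and Control 1 and CD40 3 were the lowest in both. Single markers did not all follow their sum. From CD40 2 to CD40 3, Cd3e went from 17149 to 18088, Cd4 from 2794 to 3738 and Foxp3 from 1613 to 2713. Cd3d, Cd3g, Cd2, Lck and Cd8a were lower in CD40 3 than in CD40 2. The share of T cells in each pool is not given in the sources used here, and its part in the differences of the enzymes was not tested. Cell cycle markers, summed, overlapped between Control (7312 to 11207) and every treated group (7898 to 10750).

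**Figure D2:**
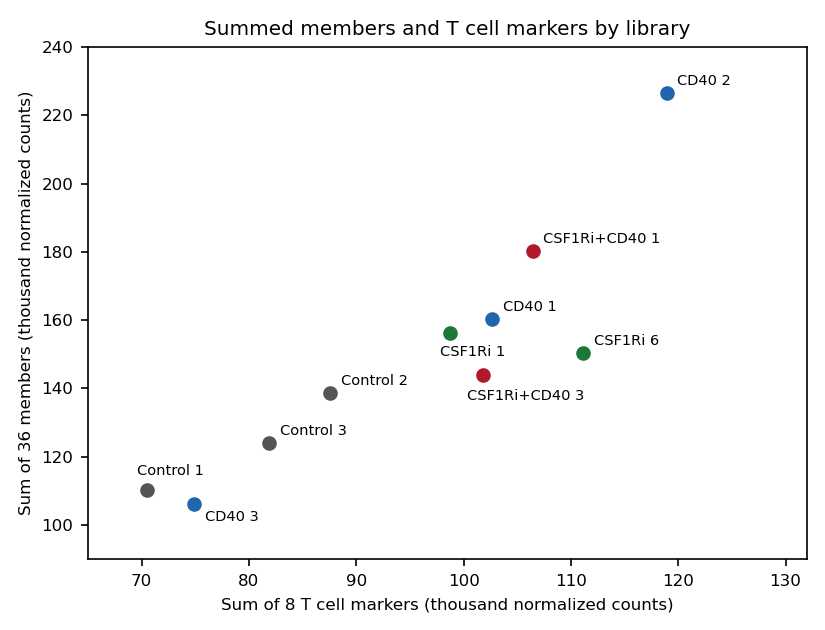
Summed normalized counts of the 36 genes (vertical axis, in units of 1000) against the summed normalized counts of 8 T cell markers (horizontal axis, in units of 1000), 1 point per library, colored by group; neither axis starts at 0. Control 1 and CD40 3 lie at the lower left and CD40 2 at the upper right.

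Levels of different genes were compared per kilobase of exon. Aldolase A led with a mean over the 10 libraries of 17215 normalized counts per kilobase, followed by Ldha at 13033, Pkm at 11257, Mif at 10454 and Gapdh at 9632. Eno1 (5714), Tpi1 (2909), Pgk1 (2246) and Gpi1 (1928) came next. The annotation holds 2 records for Aldoa, of 1824 and 741 exon bases, and only the first length was used. Over both lengths its level per kilobase would be lower, so its first place depends on that choice. Genes of glucose entry and commitment were far lower: Pfkp stood at 514, Slc2a1 at 230, Slc2a3 at 158, Hk1 at 102 and Hk2 at 52.7 per kilobase. Low levels were not limited to these steps, since the lower enzyme Pgam1 stood at 279. The lowest members were Pfkfb4 at 3.33 and Vegfa at 2.44. Ranges over libraries of neighbours such as Ldha and Pkm, or Pgk1 and Gpi1, overlapped. Part of the reads of several members, abundant and low, could belong to near-identical copies or overlapping genes. In GENCODE transcripts, 52.8% of the 75-base words of Pgk1 also occur in other genes, as do 38.3% for Mif, 34.9% for Pgam1, 34.4% for Bnip3, 23.0% for Eno1 and 22.6% for Gapdh, the last shared with 121 other genes. Gpi1 shares 10.8% and Slc2a1 0.834%. Among lower members, Ankrd37 shares 13.3%, Pfkm 8.13% and Car9 3.46%. Such a share is no measure of the error of a level. Some genes with shared words were listed low, as Pgk1-rs7 (with Pgk1) at 3 to 20 and Pgam1-ps2 (with Pgam1) at 0 to 12 normalized counts. Others were higher, as Gm26762 (with Gpi1) at 459 to 1114 and Eno1b (with Eno1) at 1767 to 3680. Lrp2bp (with Ankrd37) was listed at 20 to 166, Gm26513 (with Pfkm) at 0 to 54 and Gm12454 (with Car9) at 10 to 67. The effect on the levels was not tested.

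**Figure D3:**
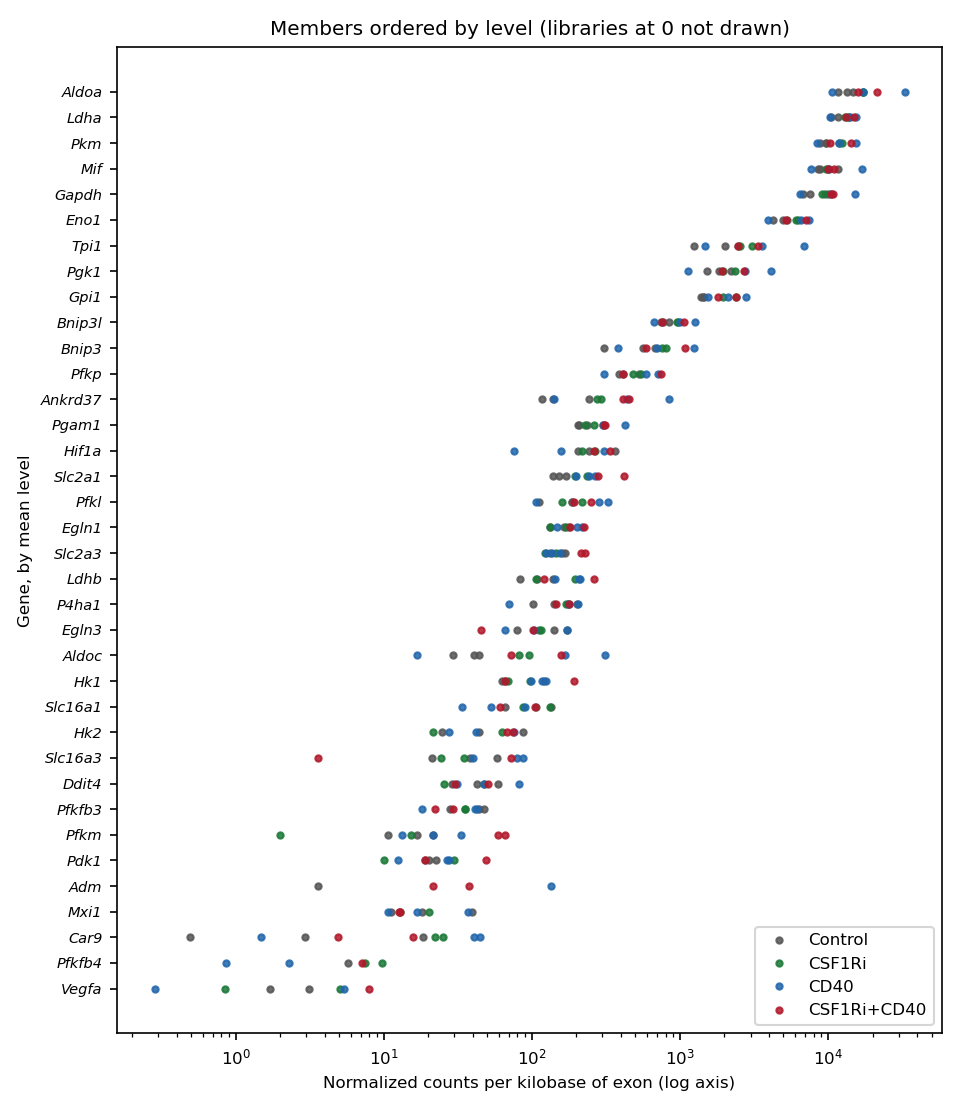
Level of each of the 36 genes as normalized counts per kilobase of exon (horizontal log axis), 1 point per library with a value above 0, colored by group, genes ordered by their mean. The order spans from Vegfa (mean 2.44) to Aldoa (mean 17215), and within most genes the 4 groups intermingle.

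The promoters of these genes were searched for the HIF core, as a description. RefSeq promoter windows of 250 bases before the start (build GRCm38.p6) were matched for 34 of the 36, with 50 windows in all; Slc2a3 and Bnip3l are not among them. The letters ACGTG and GCGTG were searched on both strands, and the palindrome CACGTG, which is also the E-box bound by MYC and other factors, counts on each strand. ACGTG occurred in 25 of the 50 windows (50.0%), against 21.0% of the 13140 windows of genes tested and 16.6% of all 32851. GCGTG occurred in 26 (52.0%), against 42.7% and 28.2%. Median GC content was 60.4% in the members' windows, 59.2% in those of genes tested and 52.4% in all. A match describes letters and shows no binding, and 31 of the 34 genes (91.2%) held a match to either core, against 59.5% of 10352 genes tested. Members had more windows per gene (50 for 34) than genes tested (13140 for 10352), which raises a share counted per gene. Glycolysis genes and HIF targets were picked by symbol, so a higher share of this core was built into the choice and is no separate result. Its link to the levels was not tested.

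The windows of 6 members are printed 5′ to 3′ on the gene's strand, with the core letters in capitals: Slc2a1 and Gpi1, which were higher in every treated library, Ankrd37, which had the largest fold change among HIF targets well above the detection limit, and Tpi1, Pgk1 and Ldha as abundant enzymes that act after aldolase. Where GENCODE has an exon inside a window, the stretch outside it is shown.
Slc2a1 (chr4:119108495-119108710, + strand): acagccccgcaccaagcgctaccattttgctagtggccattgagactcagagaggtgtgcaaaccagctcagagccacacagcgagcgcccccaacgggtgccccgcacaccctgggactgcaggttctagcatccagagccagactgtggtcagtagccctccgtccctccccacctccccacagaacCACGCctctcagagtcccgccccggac
Gpi1 (chr7:34230337-34230586, - strand): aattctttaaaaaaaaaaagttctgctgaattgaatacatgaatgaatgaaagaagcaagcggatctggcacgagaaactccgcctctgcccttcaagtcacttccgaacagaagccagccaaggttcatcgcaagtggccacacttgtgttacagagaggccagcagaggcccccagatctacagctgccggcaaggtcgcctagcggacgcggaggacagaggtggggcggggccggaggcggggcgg
Tpi1 (chr6:124814297-124814408, - strand): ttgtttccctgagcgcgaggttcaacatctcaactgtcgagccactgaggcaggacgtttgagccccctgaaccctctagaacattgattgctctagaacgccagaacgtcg
Pgk1 (chrX:106186850-106187099, + strand): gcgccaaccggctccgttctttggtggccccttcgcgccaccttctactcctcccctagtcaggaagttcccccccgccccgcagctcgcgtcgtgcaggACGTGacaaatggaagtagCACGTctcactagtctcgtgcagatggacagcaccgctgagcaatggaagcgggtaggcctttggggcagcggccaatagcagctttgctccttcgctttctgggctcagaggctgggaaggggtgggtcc
Ldha (chr7:46845554-46845803, + strand): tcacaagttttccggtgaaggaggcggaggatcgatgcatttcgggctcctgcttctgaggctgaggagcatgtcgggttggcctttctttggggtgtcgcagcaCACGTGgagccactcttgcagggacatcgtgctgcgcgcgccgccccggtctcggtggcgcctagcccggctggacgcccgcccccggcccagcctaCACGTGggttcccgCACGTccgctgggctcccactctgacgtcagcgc
Ankrd37 (chr8:45999868-46000100, - strand): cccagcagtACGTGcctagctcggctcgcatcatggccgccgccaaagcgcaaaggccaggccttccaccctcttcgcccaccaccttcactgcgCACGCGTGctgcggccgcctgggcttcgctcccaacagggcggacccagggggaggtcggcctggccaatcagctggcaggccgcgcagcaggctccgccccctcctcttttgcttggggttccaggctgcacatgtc
Pgk1 holds 2 cores, on opposite strands, 131 and 150 bases before the start. Ldha holds 5 matches, 4 of them from 2 CACGTG palindromes; a second Ldha window (chr7:46846832-46847081), not printed, holds 1 match, and only that one is followed by bases of a GENCODE transcript. The printed part of the Ankrd37 window holds 3 matches and that of Slc2a1 1, a GCGTG on the opposite strand 61 bases before the start. Gpi1 and Tpi1 hold none in the printed stretch; for Gpi1, whose level was higher in all 7 treated libraries, this says only that these letters are absent from this window.

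In what follows, values are normalized counts, given in the order Control 1, 2 and 3, CSF1Ri 1 and 6, CD40 1, 2 and 3, and CSF1Ri+CD40 1 and 3. Glucose uptake was led by Slc2a1 (GLUT1, chr4:119108711-119137983, GRCm38), the transporter that activated T cells bring to their surface. Its values were 456, 497 and 551, then 636 and 771, then 789, 649 and 868, and then 1358 and 917. Control was lowest, the single treatments overlapped each other in between, and both combination libraries were above all others. Group means were 501 ± 47.6 (SD, n = 3) in Control, 704 ± 95.5 (n = 2) in CSF1Ri, 769 ± 111 (n = 3) in CD40 and 1138 ± 312 (n = 2) in the combination. The combination was 2.23-fold over Control on the log2(value + 1) scale (log2 1.16 ± 0.28, SE, unadjusted p = 0.00162, limma adjusted p = 0.633), the smallest p of any member there and rank 39 of 15716 genes. CD40 was 0.61 ± 0.25 over Control (adjusted p = 0.773) and CSF1Ri 0.49 ± 0.28 (adjusted p = 1), both as log2 values. In the alternatives run, the combination over Control stayed between 0.87 and 1.44, and its adjusted p between 0.338 and 1.

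Slc2a3 (GLUT3, chr6:122727809-122801640), a high-affinity transporter of lymphocytes and neurons, followed another order. It measured 526, 637 and 659, then 484 and 574, then 617, 539 and 491, and then 900 and 849. Both single treatments overlapped Control, while both combination libraries were above the other 8. The combination was 0.53 ± 0.27 over Control (adjusted p = 0.925), 0.68 ± 0.27 over CD40 (adjusted p = 0.966) and 0.73 ± 0.29 over CSF1Ri (adjusted p = 1) on the log2 scale, and the departure from additivity was 0.87 ± 0.38 (adjusted p = 0.991). None of these passed. Per kilobase, Slc2a1 made up 50.1% ± 1.34 (SD, n = 3) of both transporters in Control, 61.7% ± 0.367 (n = 2) in CSF1Ri, 62.8% ± 4.74 (n = 3) in CD40 and 60.7% ± 5.62 (n = 2) in the combination. All 7 treated libraries, at 56.7% or more, exceeded the 3 Control libraries, at 51.3% or less; this follows from the same Slc2a1 values and is no separate result.

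**Figure D4:**
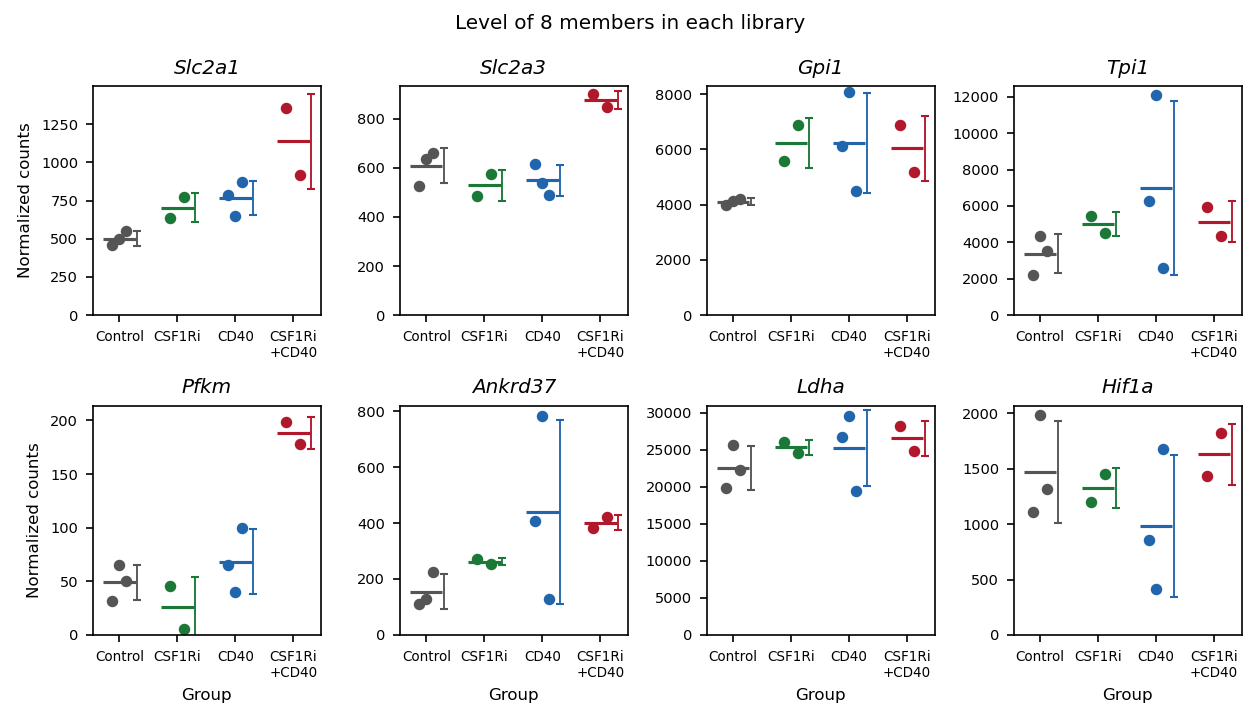
Normalized counts (vertical axes, from 0) of 8 members in each library by group; points are libraries, horizontal lines group means, and the bars beside them the SD (n = 3, 2, 3 and 2), cut at 0 for Pfkm in CSF1Ri. For Slc2a1, Slc2a3 and Pfkm both combination libraries lie above all others, while for Tpi1 and Ankrd37 the CD40 libraries hold the highest value (12096 and 784) and also one within the range of Control (2601 and 130).

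In upper glycolysis, 8, 9 and 10 of the 11 genes were above Control on average under CSF1Ri, CD40 and the combination, with median log2 fold changes of 0.25, 0.45 and 0.54, and none passed the test. Hexokinases phosphorylate glucose on entry. Hk1, the housekeeping form, measured 318, 306 and 583, then 470 and 334, then 606, 571 and 479, and then 942 and 320. Hk2, the form induced on T cell activation, measured 246, 139 and 489, then 351 and 120, then 236, 425 and 154, and then 419 and 379. Both varied more within groups than between them: the SD in Control was 157 for Hk1 and 179 for Hk2. Hk2 supplied 21.7% to 50.6% of the hexokinase transcripts per kilobase, with no order by group.

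Gpi1 (chr7:34201330-34230336) encodes glucose-6-phosphate isomerase, the step after hexokinase. Its values were 3986, 4129 and 4215, then 5601 and 6890, then 6128, 8094 and 4482, and then 6874 and 5202. The Control libraries lay close together at 4110 ± 116 (SD, n = 3), and every treated library was above them, CD40 3 by the least. As log2 fold changes over Control, CSF1Ri was at 0.60 ± 0.25 (unadjusted p = 0.0362, adjusted p = 1), CD40 at 0.56 ± 0.23 (0.0293 and 0.768) and the combination at 0.54 ± 0.25 (0.0535 and 0.919). None passed; without CD40 2 the CD40 value was 0.35, and without CSF1Ri+CD40 1 the combination value was 0.34. The combination was below the sum of both single effects by 0.61 ± 0.36 (adjusted p = 0.991), which did not pass either.

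Phosphofructokinase commits sugar to glycolysis and has a liver, a muscle and a platelet form. Pfkp, the platelet form, was the main one, at 62.2% to 76.2% of the 3 per kilobase. It measured 1677, 2270 and 1763, then 2365 and 2064, then 2543, 3078 and 1325, and then 3224 and 1785. Pfkl, the liver form, measured 696, 698 and 417, then 812 and 597, then 1224, 1064 and 399, and then 935 and 720. For both, CD40 3 was the lowest library of the 10 and another CD40 library was among the highest, so the groups overlapped except that both combination values of Pfkl lay above Control.

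Pfkm (chr15:98092589-98132451), the muscle form, was low in most libraries and stood out in the combination. It measured 32, 65 and 50, then 46 and 6, then 65, 40 and 100, and then 199 and 178. Both combination libraries were above all others, at 189 ± 14.8 (SD, n = 2) against 49.0 ± 16.5 (n = 3) in Control. The log2 fold change over Control was 1.98 ± 0.88 (unadjusted p = 0.0446, adjusted p = 0.914), and over CSF1Ri 3.38 ± 0.96 (0.00449 and 1). The interaction was 2.95 ± 1.24 (adjusted p = 0.991). Without CSF1Ri 6, whose value was 6, the difference from CSF1Ri was 2.01 and the interaction 1.58. CSF1Ri over Control was -1.41 ± 0.88 (adjusted p = 1), and CSF1Ri 6 alone set that value: without it the log2 fold change was -0.03. Pfkm made up 7.55% ± 1.89 (SD, n = 2) of the phosphofructokinase transcripts per kilobase in the combination and 2.62% ± 0.698 (n = 3) in Control, and CD40 3 reached 7.43%.

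PFKFB enzymes make and remove fructose-2,6-bisphosphate, the strongest activator of phosphofructokinase. Pfkfb3, the form that mostly makes it, measured 155, 242 and 264, then 195 and 196, then 100, 234 and 227, and then 162 and 123. Its combination mean of 143 ± 27.6 (SD, n = 2) was the lowest of the groups, and Control was at 220 ± 57.6 (n = 3), with overlapping libraries. Pfkfb4, a HIF target in many cells, was near the detection limit at 0, 0 and 20, then 26 and 34, then 8, 0 and 3, and then 25 and 0. Both CSF1Ri values were above all Control values; the fitted log2 value of 3.48 ± 1.85 (adjusted p = 1) depends on the added 1, since Control 1 and 2 are listed at 0.

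Aldolase cleaves the sugar, and TPI1 interconverts the products. Aldoa, the form of most tissues, measured 21328, 26715 and 24567, then 31287 and 31337, then 31474, 59884 and 19462, and then 39003 and 28946. Tpi1 measured 2211, 4327 and 3551, then 5451 and 4517, then 6288, 12096 and 2601, and then 5937 and 4336. In both, CD40 2 stood far above the rest and CD40 3 lay among or below Control, while the other 5 treated libraries were above Control. Tpi1 under CD40 was 0.85 ± 0.45 over Control on the log2 scale (adjusted p = 0.793), and left-out libraries and other settings moved this between 0.32 and 1.43. Aldoc, the brain form, ran from 50 in CD40 3 to 925 in CD40 2, an 18.5-fold range and wider than that of any enzyme here but Pfkm and Pfkfb4, yet was under 1% of the aldolase transcripts per kilobase (0.157% to 0.957%).

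All 5 genes of lower glycolysis were above Control on average in each treated group, with median log2 fold changes of 0.28, 0.35 and 0.38, and none passed the test. GAPDH makes the first high-energy intermediate; its gene measured 10096, 14209 and 11329, then 14852 and 13686, then 15668, 22664 and 9717, and then 16097 and 15679. Pgk1 (phosphoglycerate kinase, the first ATP-making step) measured 2769, 4044 and 3338, then 4265 and 3572, then 5038, 7473 and 2072, and then 4922 and 3494. The CD40 libraries again spread on both sides of Control, with CD40 2 highest of the 10 for all 5 lower enzymes and CD40 3 lowest for 4. Gapdh, often used as a reference gene, was 0.43 ± 0.30 higher in the combination than in Control on the log2 scale (adjusted p = 0.925) and ranged 2.33-fold over the libraries.

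Pgam1, phosphoglycerate mutase, was the 1 lower enzyme whose CD40 libraries all lay above Control. Its values were 419, 366 and 369, then 468 and 406, then 536, 754 and 535, and then 552 and 545. The log2 fold change for CD40 was 0.64 ± 0.26 (unadjusted p = 0.0309, adjusted p = 0.773), and that for the combination 0.51 ± 0.29 (adjusted p = 0.925). Pkm (pyruvate kinase of muscle and lymphocytes, the last step) measured 22835, 25031 and 25122, then 32332 and 30771, then 30746, 39878 and 21885, and then 37268 and 26708. For Pkm 6 of the 7 treated libraries were above Control, CD40 3 being the exception, and CSF1Ri was 0.38 ± 0.25 over Control (adjusted p = 1). Eno1 (enolase) ran from 9996 in CD40 3 to 18999 in CD40 2. The table counts genes and not splice forms, so the M1 and M2 forms of Pkm are not separated.

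**Figure D5:**
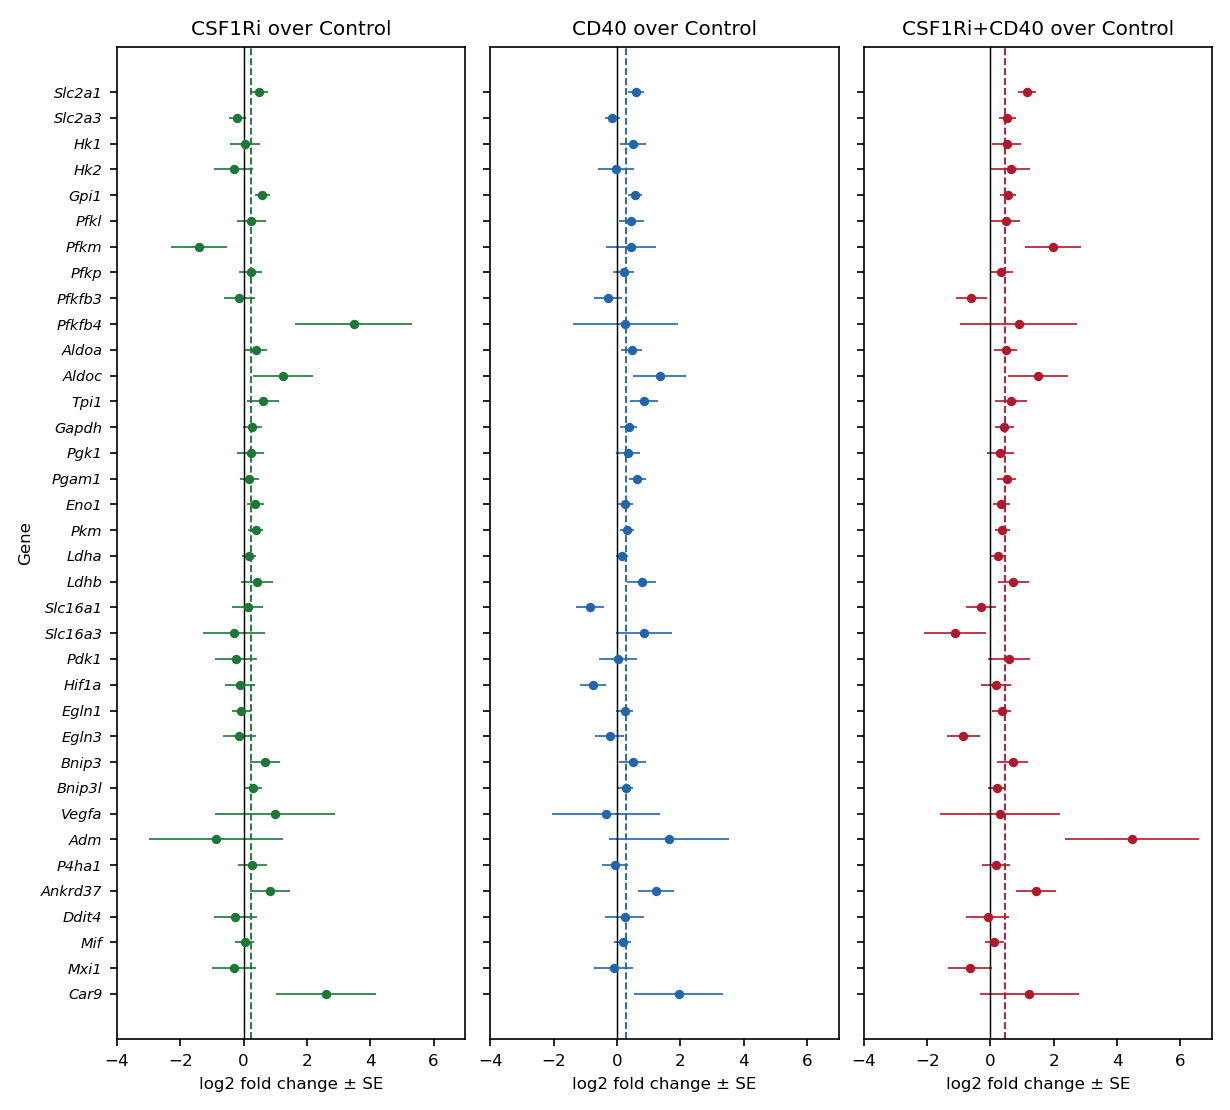
Log2 fold change of each of the 36 genes over Control (points) with its SE (bars) for CSF1Ri, CD40 and the combination; the solid line is 0 and the dashed line the median of the 36 (0.23, 0.29 and 0.46). Most points lie right of 0, the lower enzymes lie close together, and bars are widest for the low genes Pfkfb4, Vegfa, Adm and Car9.

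Genes of lactate and pyruvate handling showed no common direction. Ldha, which turns pyruvate into lactate, was the steadiest member: it measured 19817, 25651 and 22211, then 26061 and 24540, then 26663, 29495 and 19469, and then 28186 and 24885, a 1.51-fold range. Its sister Ldhb, whose enzyme favours the reverse step, measured 182, 141 and 109, then 257 and 140, then 273, 276 and 187, and then 158 and 343. Ldhb was above Control in all 3 CD40 libraries (0.77 ± 0.44 on the log2 scale, adjusted p = 0.804), yet Ldha made up 98.0% to 99.3% of both per kilobase in every library.

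Slc16a1 (MCT1) and Slc16a3 (MCT4) carry lactate across the membrane, and MCT4 is the HIF-responsive exporter. Slc16a1 measured 593, 476 and 294, then 588 and 384, then 235, 149 and 401, and then 465 and 272, with a log2 fold change of -0.85 ± 0.43 for CD40 (adjusted p = 0.788) that was -0.51 without CD40 2. Slc16a3 measured 258, 170 and 95, then 156 and 108, then 355, 388 and 179, and then 323 and 16. As a result, Slc16a3 was 60.0% and 72.1% of both per kilobase in CD40 1 and 2, 30.8% in CD40 3 and 5.53% in CSF1Ri+CD40 3. For Slc16a3 the log2 difference of the combination from CD40 was -1.98 ± 0.98 (adjusted p = 0.966), and the single value of 16 set this: without CSF1Ri+CD40 3 it was 0.15. Pdk1, the kinase that keeps pyruvate out of mitochondria, measured 117, 105 and 98, then 154 and 52, then 65, 138 and 144, and then 98 and 256, where the treated groups spread around a tight Control.

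The 3 HIF pathway genes differed from each other in order over the libraries. Hif1a (chr12:73901375-73947530) measured 1111, 1985 and 1318, then 1198 and 1452, then 854, 416 and 1674, and then 1435 and 1825. Its lowest library was CD40 2, the highest library for 4 of the 11 upper and all 5 lower glycolysis genes. CD40 3, the lowest library for 4 of the upper and 4 of the lower genes, stood at 1674. Against Control, CD40 was at -0.76 ± 0.42 (adjusted p = 0.794) and the combination at 0.18 ± 0.47 (adjusted p = 0.992) on the log2 scale. The combination was 0.94 ± 0.47 over CD40 (adjusted p = 0.966), and 0.44 without CD40 2 or 1.44 without CD40 3. Of the hydroxylases, Egln1 (PHD2, the main oxygen sensor) measured 641, 589 and 479, then 475 and 613, then 528, 725 and 780, and then 654 and 803. Egln3 (PHD3, itself a HIF target) measured 376, 457 and 210, then 298 and 305, then 274, 463 and 175, and then 270 and 121. Egln1 ranged only 1.69-fold. Its combination libraries lay above Control, at 654 just above the highest Control value and at 803 the highest of the 10. Egln3 was highest in CD40 2 and next to lowest in CD40 3, as many enzymes were. Egln3 was lowest in CSF1Ri+CD40 3 and overlapped Control in every group. Its log2 fold changes over Control were -0.13, -0.23 and -0.87, with adjusted p of 1, 0.95 and 0.925.

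Among the 10 HIF targets and stress genes, 7, 7 and 8 were above Control on average under CSF1Ri, CD40 and the combination, with median log2 fold changes of 0.29, 0.26 and 0.25 and none past the test. Ankrd37 (chr8:45996902-46005707), a small ankyrin-repeat gene strongly induced by hypoxia in many cells, measured 109, 128 and 226, then 270 and 254, then 407, 784 and 130, and then 382 and 421. All but CD40 3 of the treated libraries were above Control. Its log2 fold change was 1.45 ± 0.63 for the combination (2.72-fold, unadjusted p = 0.0428, adjusted p = 0.914) and 1.23 ± 0.57 for CD40 (0.0512 and 0.773), where other settings and left-out libraries gave 0.65 to 1.94.

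Bnip3 and Bnip3l tag mitochondria for removal by autophagy, and Bnip3 is a classic HIF target. Bnip3 measured 567, 1258 and 1053, then 1495 and 1401, then 1299, 2307 and 712, and then 2003 and 1090. Bnip3l measured 2525, 2753 and 2438, then 3137 and 3204, then 3306, 4139 and 2191, and then 2490 and 3491. Each was above Control in both CSF1Ri libraries, highest in CD40 2, and within or below Control in CD40 3 and 1 combination library. Mif, a cytokine gene that HIF can activate and that T cells express at a high level, measured 4819, 6390 and 4688, then 5454 and 5243, then 5482, 9242 and 4153, and then 5405 and 5996. Apart from CD40 2 and 3, treated libraries of Mif lay inside the range of Control.

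Secreted and membrane targets that mark hypoxia in tumor cells were scarce. Vegfa, the vessel growth factor, measured 6, 11 and 0, then 18 and 3, then 0, 1 and 19, and then 28 and 0, too low to compare. Adm, which encodes the vasodilator adrenomedullin, was listed at 5, 0 and 0, then 0 and 0, then 186, 0 and 0, and then 30 and 52. It was thus seen in CD40 1 and in both combination libraries. Of these, CD40 1 and CSF1Ri+CD40 1 also held the most mast cell markers of the 10 libraries (18054 and 9825). CSF1Ri+CD40 3, with Adm at 52, held 1801 of these markers. CD40 2 and 3, with Adm at 0, held 2428 and 3569. The part of mast cells was not tested. Fitted log2 values for Adm in the combination, 4.48 ± 2.12 over Control (adjusted p = 0.922) and 5.34 ± 2.32 over CSF1Ri (adjusted p = 1), depend on the added 1 and are no measure of size. Car9, the carbonic anhydrase that is a tissue marker of hypoxia, was listed at 1, 6 and 37, then 45 and 51, then 90, 83 and 3, and then 32 and 10. Its CSF1Ri values lay just above the highest Control value, and the fitted 2.59 ± 1.58 (adjusted p = 1) rests on Control values near 0.

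Ddit4 (REDD1, an inhibitor of mTORC1 under stress) measured 75, 103 and 51, then 83 and 45, then 83, 55 and 143, and then 53 and 89, with the groups overlapping. P4ha1, a collagen prolyl hydroxylase, ran from 288 in CD40 2 to 840 in CD40 3, and like Hif1a it was lowest in CD40 2. Mxi1, a repressor that opposes MYC, ran from 71 in CD40 3 to 264 in Control 2 and had a lower mean than Control in all 3 treated groups, as Egln3 did, at -0.31, -0.10 and -0.65 on the log2 scale, with adjusted p of 1, 0.992 and 0.959.

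The combination was then set against each single treatment. Over CD40, the combination had 22 of 36 members higher, with a median log2 difference of 0.08, against 50.3% of all genes, and this turned negative (-0.21) without CD40 3 and (-0.14) without CSF1Ri+CD40 1. At an adjusted p under 0.05 it called 0 members (background 0%), and at an unadjusted p under 0.05 only Slc2a3 (4.96%). Slc2a1, Slc2a3 and Pfkm were above every CD40 library (8.19% of genes), and 0 members below (6.84%). Over CSF1Ri, 24 of 36 were higher, with a median of 0.10, against 48.1% of all genes, and the median was -0.14 without CSF1Ri+CD40 1. Here 0 members passed (0%), and 3 had an unadjusted p under 0.05 (3.58%), namely Pfkm, Slc2a3 and Adm. Adm passed the low-value filter only through the combination libraries, at 30 and 52, so its place here was partly set by the filter. With 2 libraries against 2, 9 members lay above (16.5% of genes), Adm again among them, and 4 below (16.8%). The 4 were Pfkfb3, Pfkfb4, Egln3 and Car9.

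Departure from additivity on the log2 scale was below 0 for 27 of the 36 members, with a median of -0.23 against -0.02 for all genes, and 49.1% of all genes were above 0. None passed (background 0%), and 2 members, Pfkm and Slc2a3, had an unadjusted p under 0.05 (4.17%), both above 0. All 5 lower enzymes and 9 of the 11 upper enzymes were below 0, while Slc2a3 was at 0.87 ± 0.38 and Slc2a1 near 0 at 0.06 ± 0.40 (adjusted p = 0.991 and 0.994). The 9 members above 0 became 17 without CSF1Ri+CD40 3 and 16 without CD40 2.

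Other genes of the same pathways, from lists drawn up by pathway, are given as counts, and none passed the adjusted threshold in any comparison over Control. Of 18 further glycolysis genes tested, 8, 9 and 8 were higher than Control under CSF1Ri, CD40 and the combination. Pgm2, a phosphoglucomutase, measured 562, 452 and 501, then 705 and 792, then 838, 1080 and 803, and then 1280 and 922. Every treated library was above Control, as for Slc2a1, and the combination was 1.11 ± 0.27 over Control on the log2 scale (unadjusted p = 0.00173, adjusted p = 0.633). Pfkfb1 was low, at 48 and 0 in the combination and 67 to 139 in Control.

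Of 11 genes of pyruvate entry into mitochondria, pyruvate dehydrogenase and its regulators, 6, 4 and 5 were higher. The list mixes genes that promote and that oppose the use of pyruvate, so these counts give no direction for it. Pdha1, a subunit of pyruvate dehydrogenase, was at 2413, 1441 and 1620 in CD40 against 2384 to 2944 in Control (-0.55 ± 0.23, adjusted p = 0.773), and Dlat, another subunit, was at 281 and 87 in CSF1Ri against 296 to 702 (-1.38 ± 0.59, adjusted p = 1). Of 7 pentose phosphate genes, 4, 5 and 5 were higher, among them Pgls (0.66 ± 0.33 for CD40, adjusted p = 0.783) and Tkt (0.43 ± 0.23 for the combination, adjusted p = 0.925). Of 8 HIF regulators, 3, 4 and 1 were higher, so that 7 were lower in the combination (median -0.33 on the log2 scale). Hif1an, the asparagine hydroxylase that blunts HIF activity, was at 30 and 74 in the combination against 114 to 279 in Control (-1.83 ± 0.66, adjusted p = 0.866), and Cul2, of the VHL ubiquitin ligase, was -0.86 ± 0.40 under CD40 (adjusted p = 0.773).

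Of 17 further HIF targets, 8, 9 and 12 were higher. Bhlhe40, a transcription factor of activated T cells, measured 3305, 2579 and 3297, then 4189 and 3491, then 2626, 2485 and 1571, and then 5987 and 5175. Both combination libraries were the highest of the 10 and the CD40 libraries among the lowest, with a log2 fold change of 0.87 ± 0.26 for the combination over Control (adjusted p = 0.743). Ndrg1 was 1.51 ± 0.45 over Control under CD40 (adjusted p = 0.691), at 255 to 474 against 69 to 195. Of 10 upstream regulators of glycolysis, 4, 2 and 4 were higher (median -0.29 under CD40), and the nearest to the threshold were Pik3r1 (-0.46 ± 0.23 for CD40, adjusted p = 0.788) and Mtor (0.80 ± 0.55 for the combination, adjusted p = 0.925).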

How the data were processed

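Per the labels' protocols, tumors were digested, red cells lysed and dead cells removed on a gradient; 50 ng of RNA went into SMARTer libraries without strand information, so overlapping genes on opposite strands are not separated, and 75-base read pairs were sequenced. Per the submitters' processing notes, STAR, HTSeq and DESeq2 were used with GRCm38 (mm10); versions are not given in the sources used here. The deposited values are scores, counts that the authors divided by size factors and rounded. Median-ratio factors computed from them lay within 0.203% of each other, so no further scaling was done. Values were taken as log2(value + 1), filtered at 10 in 2 libraries, and fitted with limma 3.58.1 (R 4.3.3) with 4 groups, a variance trend, and 6 residual and 5.48 prior degrees of freedom. All tests were two-sided. The script was tested on simulated data.

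The members and lists were chosen with earlier results of these data known. The rule for named genes took the 6 members with the smallest p per comparison over Control, 3 per other comparison, 25 members always given, and the 2 with the smallest p of each other list; Aldoc, Eno1, P4ha1 and Mxi1 were added to cover all members, and Malat1 and the mitochondrial genes after seeing the data. Alternatives were the pseudocount, filter, scaling, variance trend, groups in the fit, replicate block, each library left out, and the 7 libraries without Y-linked transcripts. Counts of groups that do not overlap were given alternatives after seeing the data. Positions and exon lengths are from GENCODE vM21 of GRCm38; 2 records exist for Aldoa, and the first was used. 1 item of the strain's description is not reported here.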

Additional observations from a re-analysis of the deposited data

How the results depend on the processing

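The calls over all genes were few and unstable, and 0 members passed under any alternative. Genes passing numbered 1 for CSF1Ri over Control and 0 with a pseudocount of 5, no filter, a minimum of 50, only the groups compared or the 7 libraries without Y-linked transcripts, 6 without the variance trend, and 0 to 0 over left-out libraries. For CD40 over Control, 1 gene became 0 with no filter, only the groups compared, the replicate block or the 7 libraries, 2 without the trend, and 0 to 3 over left-out libraries. For the combination over Control, 0 became 1 with a pseudocount of 5 or a minimum of 50, 13 without the trend, and 0 to 36 over left-out libraries, 36 without CSF1Ri+CD40 1 and 7 without CSF1Ri+CD40 3. Over CD40 it was 9 without the trend and 0 to 20 over left-out libraries, over CSF1Ri 15 and 0 to 6, and for the interaction 6 and 0 to 2. The cause was not tested. The title numbers share only a number: correlations of same-numbered libraries ran from -0.11 to 0.09, and the replicate block took the median of the members to 0.54 for the combination over Control.

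Members higher numbered 13 to 28 for the combination over CD40 and 9 to 17 for the interaction over left-out libraries. The median of the members for the combination over CD40 reversed to -0.028 with the 7 libraries, and over left-out libraries ran from -0.21 to 0.26; over CSF1Ri it ran from -0.14 to 0.25. For Slc16a3, the combination over CD40 ran from -4.10 without CSF1Ri+CD40 1 to 0.15, a reversal, without CSF1Ri+CD40 3. Members above every Control library, over left-out libraries, numbered 12 to 21 for CSF1Ri, 4 to 19 for CD40 and 15 to 23 for the combination. The shares of all genes rose too, to 16.4% to 23.9%, 7.02% to 13.7% and 14.7% to 26.0%. With every library they were 11.6%, 4.19% and 10.6%. Of 497 alternative values for single named genes, 496 kept direction and side of the threshold. Fitted values of genes near 0 (Vegfa, Adm, Pfkfb4, Car9) depend on the added 1, depth is not known from scaled values, and groups of 2 or 3 pools limit all tests.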
